A study of Mus musculus with 6 samples.

Results

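The 9 genes described here control or carry out the defence of cells against oxidants. They were chosen by function, with earlier results of these data known: Nfe2l2, Keap1, Sqstm1, Sod2, Gclc, Gclm, Nqo1, Txnrd1 and Hmox1, of 21000 protein-coding genes in the RefSeq annotation of mm10. Binding at these genes was read from 3 lists of p65 peaks, 1 for each condition. p65 is the NF-κB subunit encoded by Rela, and ChIP–seq sequences the DNA that an antibody against it pulls down from chromatin and shows its sites as peaks of reads. A peak was assigned to a gene when the middle of the peak had its nearest transcription start site (TSS) at that gene. In a wider view, any peak with its middle within 50 kb of a TSS of the gene was counted, whichever gene it was nearest to.

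The study asked how p65 binding in the epidermis depends on age and on IL-17 signaling. Epidermal cells of C57bl/6J mice were released from skin with trypsin as a suspension of whole epidermis, which holds other cells beside keratinocytes. The adult mice (17 to 25 weeks) were untreated, and the aged mice were injected for 12 weeks from 73 weeks of age, either with a control IgG (aged/IgG control in the plots, IgG-treated below) or with blocking antibodies against IL-17A and IL-17F (aged/anti-IL-17A/F in the plots, anti-IL-17A/F-treated below, whose age label reads Aged+). The authors pooled the reads of 4 mice in each condition before calling peaks, so that each condition had 1 list. No replicate, spread or test between conditions was therefore available for any value below, and the 95% Wilson intervals given with shares cover counting error only. In such a pool of mixed cells, fewer cells with p65 at a site and less p65 per cell cannot be told apart, and the lists hold no expression values against which the cell label could be checked.

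The adult list held 8525 peaks, the IgG-treated list 4169 and the anti-IL-17A/F-treated list 6014. The strength of a peak is given as the fold enrichment, the authors' ratio of reads at the summit to the local background, with a median of 3.60 in adult, 3.80 in IgG-treated mice and 3.69 in anti-IL-17A/F-treated mice. The number of reads behind a peak is unknown from the lists. The percentile of a peak is its place by fold enrichment within its own list, with 100 for the strongest, and it depends on how many weak peaks the list holds. Peak names inside both the adult list and the anti-IL-17A/F-treated list begin with the word Treated, whereas those of the IgG-treated list begin with Control. Conditions were taken from the sample labels. Exchanging the adult and anti-IL-17A/F-treated lists swaps their values and leaves the IgG-treated list, and every statement on presence in both of the other lists, as they are.

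NRF2, the product of Nfe2l2, is a transcription factor that binds the antioxidant response element (ARE) together with small MAF proteins and turns on genes of glutathione synthesis, quinone reduction and thioredoxin reduction. KEAP1 holds NRF2 in the cytoplasm and marks it for degradation unless oxidants or electrophiles modify it, and p62, encoded by Sqstm1, can draw KEAP1 away into autophagy. NF-κB and NRF2 respond to many of the same stimuli, and Sod2, which encodes the mitochondrial superoxide dismutase, is a classical NF-κB target. In skin, these enzymes protect keratinocytes against oxidants from sunlight, metabolism and inflammatory cells.

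Sequences from the peaks of Sqstm1, Sod2 and Gclc, which were present in every list, are shown first, since the motifs in them differ between the sites. Each was read from the RefSeq copy of the mm10 genome and is written 5′ to 3′ on the strand of its gene. Capitals mark, at the Sqstm1 sites and the Sod2 promoter, matches to the NF-κB consensus of 10 letters, to the AP-1 site TGANTCA and to the ARE core TGACNNNGC. At the Sod2 intron and the Gclc site, where the consensus had no match, capitals also mark the looser NF-κB pattern GGGNNNNNCC, of which every consensus match is a case.
Sqstm1 upstream, around the 3 summits, chr11:50213160-50213285, minus strand: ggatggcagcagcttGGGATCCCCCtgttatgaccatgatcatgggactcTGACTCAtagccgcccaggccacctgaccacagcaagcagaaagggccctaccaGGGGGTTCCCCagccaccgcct
Sqstm1 upstream, second NF-κB cluster of the same peak, chr11:50213580-50213630, minus strand: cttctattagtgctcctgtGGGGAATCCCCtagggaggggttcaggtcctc
Sqstm1 upstream, the edge of the peak nearest to the gene, chr11:50212915-50212965, minus strand: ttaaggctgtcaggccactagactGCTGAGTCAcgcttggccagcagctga
Sod2 promoter, just upstream of the TSS, chr17:13007683-13007803, plus strand: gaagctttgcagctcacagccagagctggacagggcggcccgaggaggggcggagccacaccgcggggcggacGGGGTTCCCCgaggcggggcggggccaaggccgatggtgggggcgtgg
Sod2 intron 2, chr17:13010021-13010320, plus strand: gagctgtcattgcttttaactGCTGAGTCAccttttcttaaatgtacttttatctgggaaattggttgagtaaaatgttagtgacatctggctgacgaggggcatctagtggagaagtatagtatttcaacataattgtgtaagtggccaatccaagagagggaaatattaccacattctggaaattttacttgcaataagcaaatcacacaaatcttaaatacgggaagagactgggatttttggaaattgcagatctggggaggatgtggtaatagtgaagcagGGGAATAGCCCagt
Gclc upstream, chr9:77750736-77750976, plus strand: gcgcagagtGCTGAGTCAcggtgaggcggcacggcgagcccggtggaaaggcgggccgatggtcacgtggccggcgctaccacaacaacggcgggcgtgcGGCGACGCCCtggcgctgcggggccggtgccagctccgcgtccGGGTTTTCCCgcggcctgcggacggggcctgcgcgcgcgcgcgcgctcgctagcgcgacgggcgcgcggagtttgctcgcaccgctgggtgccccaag

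Windows around summits of the other genes with an assigned peak follow, and they hold few or none of these motifs. Nfe2l2, among them, also had a peak in every list. Capitals mark the looser pattern GGGNNNNNCC at Nfe2l2, and none of the motifs had a match in the windows of Nqo1 and Txnrd1. These windows give no contrast in motifs, since the Sod2 intron and Gclc windows reach motifs at -190 and -167 bp from the adult summit. Beyond the windows shown, Nqo1 peaks held the looser pattern at 109 bp in adult and 175 bp in anti-IL-17A/F-treated mice. The Txnrd1 peak of anti-IL-17A/F-treated mice held it at -188 bp. The whole adult Nfe2l2 peak held 4 looser matches and 1 ARE core.
Nfe2l2 intron 1, chr2:75703497-75703722, minus strand: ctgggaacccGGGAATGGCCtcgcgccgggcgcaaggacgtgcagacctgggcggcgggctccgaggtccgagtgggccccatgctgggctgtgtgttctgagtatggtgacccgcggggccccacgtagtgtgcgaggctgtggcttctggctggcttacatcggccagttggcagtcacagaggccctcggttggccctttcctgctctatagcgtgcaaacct
Nqo1 promoter, chr8:107403366-107403466, minus strand: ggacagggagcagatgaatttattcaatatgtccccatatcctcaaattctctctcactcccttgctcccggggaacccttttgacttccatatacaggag
Txnrd1 upstream, chr10:82829769-82829869, plus strand: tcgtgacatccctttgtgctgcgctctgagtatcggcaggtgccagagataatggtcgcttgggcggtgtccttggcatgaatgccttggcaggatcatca

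In the adult list, 6 of the 9 genes had an assigned peak, against 23% of all protein-coding genes (22.5 to 23.6%). In IgG-treated mice 4 of 9 had one, against 12.9% (12.4 to 13.3%), and in anti-IL-17A/F-treated mice 6 of 9, against 17.4% (16.9 to 17.9%). Sod2, Nfe2l2, Sqstm1 and Gclc had a peak in every list, as did 11.4% of all protein-coding genes. With a −log10 q of at least 10, the Nfe2l2 peak of IgG-treated mice was lost and 3 of these genes were left in that list. Nqo1 and Txnrd1 had one in adult and anti-IL-17A/F-treated mice but not in IgG-treated mice, the pattern of 905 genes, or 4.31%. For Txnrd1 this ended with a −log10 q of at least 5, where its anti-IL-17A/F-treated peak was lost and 5 of the 9 genes were left in that list. For Keap1, Hmox1 and Gclm the lists as analysed here held no assigned peak, as for 74.9% of genes.

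The peaks assigned to the 9 genes numbered 8 in adult, 5 in IgG-treated mice and 8 in anti-IL-17A/F-treated mice, and they fell at 8 places (plots of their distances and of their strength by site). Of the 8 adult peaks, 5 overlapped a peak of IgG-treated mice, against 45.5% of all adult peaks, and 7 overlapped one of anti-IL-17A/F-treated mice, against 60.4%. All 5 peaks of IgG-treated mice overlapped one of anti-IL-17A/F-treated mice, against 86.6% of all peaks of the IgG-treated list. Within 50 kb of a TSS, 7 of the 9 genes had a peak in adult (43.4% of all genes), 5 in IgG-treated mice (27.5%) and 7 in anti-IL-17A/F-treated mice (35%). The lists differ in length, and when each was limited to its 4169 strongest peaks, all 3 held 4 of the genes with 5 peaks, every one shared, so that the difference in number between the lists was then gone.

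**Figure D1:**
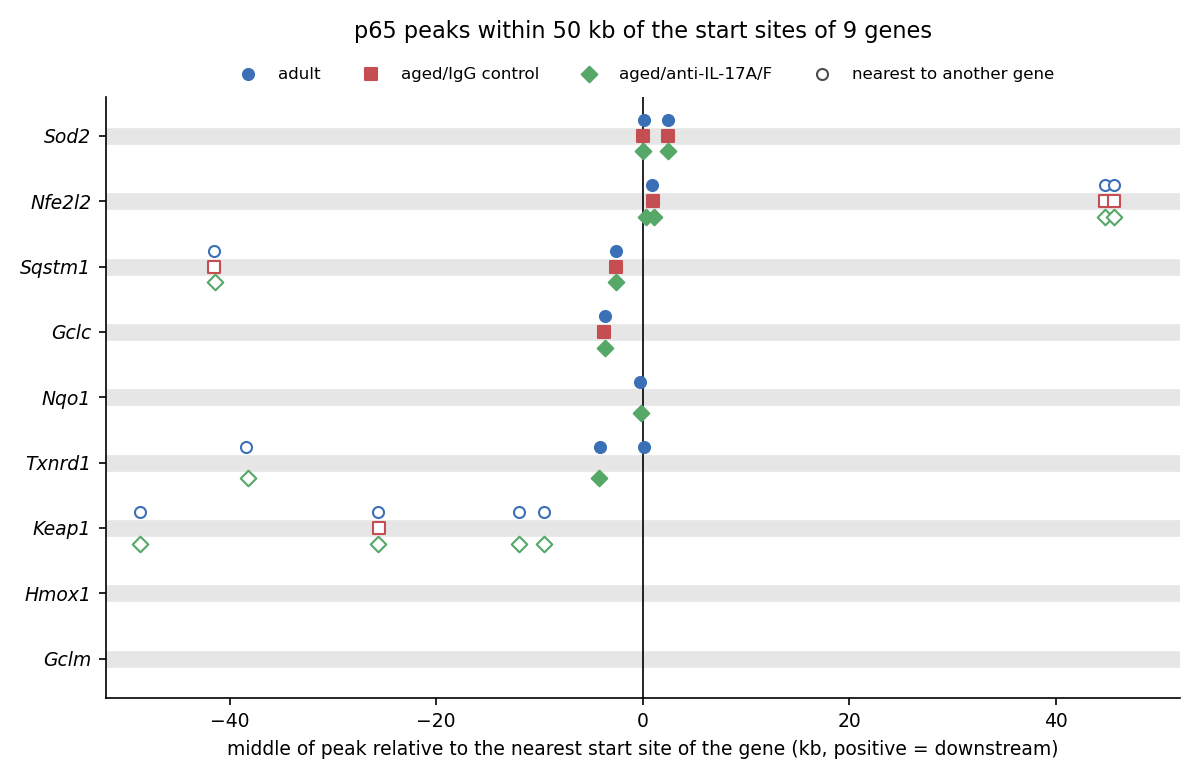
Each symbol is 1 p65 peak within 50 kb of a start site of the gene named on the left, placed by the distance in kb from the middle of the peak to the nearest start site of that gene, with downstream positive. Filled symbols are peaks assigned to the gene and open symbols are peaks nearest to another gene; no symbol stands at Hmox1 or Gclm, and Nqo1 and Txnrd1 have none for IgG-treated mice.

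Of the regulators, Sqstm1, which encodes the autophagy receptor p62, had the strongest peak of the 9 genes in adult. The gene lies on the minus strand of chr11 (50200152 to 50210820), and the peak was intergenic, with its middle at -2544 bp from the TSS in adult, -2591 bp in IgG-treated mice and -2580 bp in anti-IL-17A/F-treated mice. Its fold enrichment was 6.84 in adult (rank 950, percentile 88.9), 5.34 in IgG-treated mice (rank 881, percentile 78.9) and 5.40 in anti-IL-17A/F-treated mice (rank 1233, percentile 79.5). The value was thus highest in adult, and both aged lists lay close together. The −log10 of the q value, the authors' measure of how far the peak stood above background, was 49.6, 30.2 and 36.4 in the same order. The 3 summits fell within 47 bp of each other.

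The Sqstm1 peak was also the richest of all these sites in NF-κB motifs. In each of the 3 lists it held 5 matches to the consensus on either strand, and 3 of them lay within 100 bp of the summit, as in the first sequence above. One match had its centre 5 bp from the adult summit, and the overlapping pair written there as GGGGGTTCCCC lay on the other side of it. The second cluster, GGGGAATCCCC, is a further overlapping pair, on the side of the peak away from the gene. An AP-1 site (TGAGTCA on the plus strand) had its centre at -28 bp from the summit in adult, 19 bp in IgG-treated mice and -6 bp in anti-IL-17A/F-treated mice, counted along the plus strand.

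A second strong peak lay near Sqstm1 but was nearest to Ltc4s, which encodes leukotriene C4 synthase. It stood at -41488 bp from the Sqstm1 TSS in adult with a fold enrichment of 6.58, and the corresponding peaks had 5.61 in IgG-treated mice and 4.74 in anti-IL-17A/F-treated mice. In each list it held 2 matches to the NF-κB consensus within 100 bp of its summit. Among the other 2386 protein-coding genes with a peak in every list, those whose strongest peak had percentiles closest to those of Sqstm1 over the 3 conditions were Hspb9 (87.7, 79.0 and 79.0), Slco3a1 (88.8, 77.9 and 80.5) and Golph3 (89.2, 80.5 and 79.6). Their distances from Sqstm1, as the straight line over 3 percentiles, were 1.25, 1.40 and 1.67.

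Nfe2l2 itself, the gene of NRF2, had a peak in intron 1 that differed more between the lists. Nfe2l2 lies on the minus strand of chr2 (75675513 to 75704663). The adult peak was 1015 bp wide with its middle at 897 bp downstream of the TSS and had a fold enrichment of 4.67 (rank 2347, percentile 72.5). In IgG-treated mice the fold enrichment was 2.73 (rank 3801 of 4169, percentile 8.83), and in anti-IL-17A/F-treated mice it was 4.54 (rank 1859, percentile 69.1). Percentiles depend on the length of a list, and by rank, counted from the strongest peak, the site was also lowest in IgG-treated mice. The −log10 q values were 23.2, 8.27 and 24.9.

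In anti-IL-17A/F-treated mice a further small peak of 352 bp (fold enrichment 2.16, rank 5975 of 6014) had its middle at 274 bp downstream of the TSS, in coding sequence of exon 1, and its summit in intron 1. It overlapped the wide adult peak as well, and 265 bp separated it from the peak of IgG-treated mice. The 3 summits of the main site spread over 138 bp, the widest spread of these sites. No match to the NF-κB consensus was found in any of the Nfe2l2 peaks, and the looser pattern matched once near the adult summit (GGGAATGGCC, centre at 60 bp) and 4 times near the summit of the small peak. No ARE core lay within 100 bp of a summit, and the adult peak held 1 farther out, TGACTAGGC, at 334 bp from the summit.

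The other peaks within 50 kb of Nfe2l2 lay beyond the far end of the gene. The first, at 44734 bp downstream of the TSS in adult and nearest to Hnrnpa3, which encodes an RNA-binding protein, had a fold enrichment of 7.48 in adult, 6.61 in IgG-treated mice and 6.70 in anti-IL-17A/F-treated mice. The next, at 45676 bp in adult and nearest to Gm39859, had 2.64, 3.15 and 4.69, the highest value being that of anti-IL-17A/F-treated mice. Percentiles of the latter were 10.3, 24.5 and 71.5.

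For Keap1, which encodes the sensor that restrains NRF2, no peak in the lists as analysed here was nearest to its TSS (minus strand of chr9, 21229730 to 21239332). Within 50 kb upstream there were 4 peaks in adult, 1 in IgG-treated mice and 4 in anti-IL-17A/F-treated mice. The closest were nearest to S1pr5, which encodes a sphingosine 1-phosphate receptor. They stood at -9539 bp in adult (fold enrichment 3.01) and -9525 bp in anti-IL-17A/F-treated mice (3.27), with a second pair at -11976 bp (2.66) and -12025 bp (3.23). The peak present in all 3 lists lay at the promoter of the autophagy gene Atg4d, with fold enrichments of 5.38, 3.31 and 4.58. The outermost, at the TSS of Kri1, lay just inside the window, at -48650 bp in adult (3.62) and -48636 bp in anti-IL-17A/F-treated mice (3.11). Of these 4 places, the IgG-treated list held the Atg4d peak. Of all adult peaks in the deciles of the other 3, 87.5% (for 2.66), 82.5% (for 3.01) and 63.1% (for 3.62) had no counterpart in that list. None of the 4 places had an NF-κB consensus match within 100 bp of the summit.

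Of the enzymes, Sod2 carried a pair of peaks in every list, at the promoter and in intron 2. Among the 2387 protein-coding genes with a peak in every list, 484 (20.3%) had 2 or more in each. Sod2 lies on the plus strand of chr17 (13007839 to 13018119). The promoter peak covered the TSS, with its middle at 94 bp in adult, 1 bp in IgG-treated mice and 23 bp in anti-IL-17A/F-treated mice, in the 5′ UTR of exon 1, and its summits lay just upstream of the gene. Its fold enrichment was 6.14 in adult (rank 1268, percentile 85.1), 4.63 in IgG-treated mice (rank 1292, percentile 69.0) and 5.50 in anti-IL-17A/F-treated mice (rank 1178, percentile 80.4). Adult was highest and IgG-treated mice lowest, and −log10 q followed the same order with 43.0, 22.4 and 30.7.

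The promoter peak of Sod2 held 1 match to the NF-κB consensus, GGGGTTCCCC at chr17:13007756-13007765, which is the capital stretch in the Sod2 promoter sequence above. Its centre lay at 17 bp from the adult summit, -10 bp from that of IgG-treated mice and 10 bp from that of anti-IL-17A/F-treated mice. The summits of this site spread over 27 bp.

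The peak in intron 2 of Sod2 had its middle at 2410 bp downstream of the TSS in adult, 2399 bp in IgG-treated mice and 2406 bp in anti-IL-17A/F-treated mice. Its fold enrichment was 6.59 (rank 1056, percentile 87.6), 3.77 (rank 2113, percentile 49.3) and 4.67 (rank 1730, percentile 71.1), with −log10 q of 42.7, 12.9 and 21.5. The intron was thus stronger than the promoter in adult and weaker than it in both aged lists. No consensus match was present there. The looser pattern matched at GGGAATAGCC, 75 bp from the adult summit, 55 bp from that of IgG-treated mice and 89 bp from that of anti-IL-17A/F-treated mice.

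**Figure D2:**
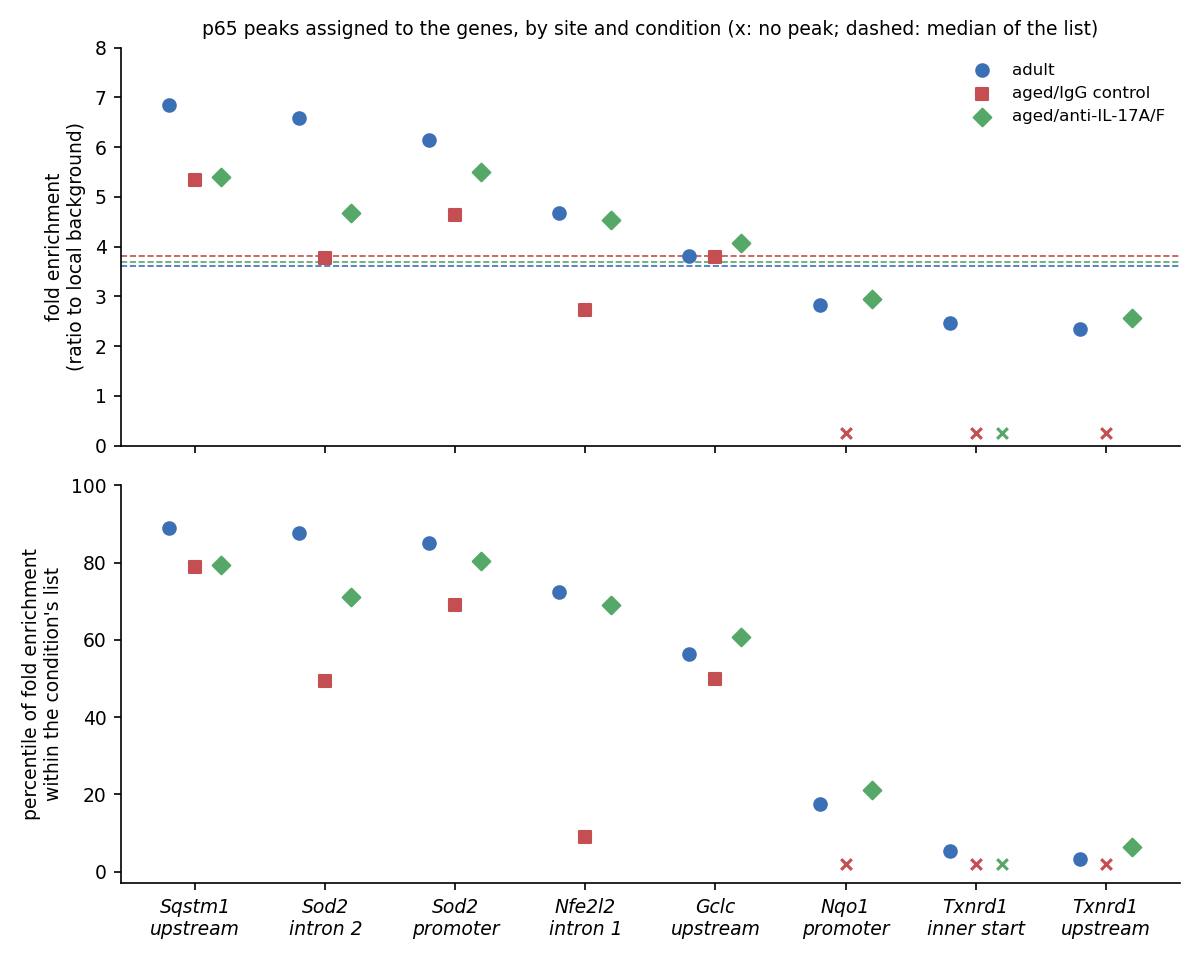
The upper panel gives the fold enrichment of each peak assigned to the genes, as a ratio to the local background, and the lower panel its percentile within the list of its condition, with 1 symbol per list and a cross where the list held no peak. Dashed lines are the medians of the lists (3.60, 3.80 and 3.69). All 5 sites bound in every list lie above them in adult and anti-IL-17A/F-treated mice. In IgG-treated mice Sqstm1 and the Sod2 promoter do. The IgG-treated list has the lowest value at each of these 5 sites, and the 3 sites at the right are weak wherever they were called.

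Gclc encodes the catalytic subunit of glutamate-cysteine ligase, which makes the first step of glutathione synthesis. Gclc lies on the plus strand of chr9 (77754535 to 77794489), and its peak was intergenic, with its middle at -3642 bp in adult, -3703 bp in IgG-treated mice and -3632 bp in anti-IL-17A/F-treated mice. The fold enrichment was 3.81 (rank 3720, percentile 56.4), 3.80 (rank 2086, percentile 49.9) and 4.08 (rank 2357, percentile 60.8). These values were near the median of each list, and the site was the most even of those bound in every list. The summits lay within 29 bp of each other. The looser NF-κB pattern matched at GGGTTTTCCC, with its centre at -33 bp from the adult summit, -24 bp from that of IgG-treated mice and -4 bp from that of anti-IL-17A/F-treated mice.

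Gclm encodes the modifier subunit of the same ligase (plus strand of chr3, 122245557 to 122267215). The lists as analysed here held no peak within 50 kb of its TSS. The closest lay outside the window, at 71151 bp in adult and 71249 bp in anti-IL-17A/F-treated mice, where Mir760 was the nearest gene, and at 163631 bp in IgG-treated mice, near Bcar3. For Hmox1, which encodes the heme-degrading enzyme heme oxygenase 1 (plus strand of chr8, 75093618 to 75100593), the lists as analysed here likewise held no peak within 50 kb. The closest lay at -1740124 bp in adult, 2365143 bp in IgG-treated mice and 2365165 bp in anti-IL-17A/F-treated mice. Over a stretch this long without a listed peak, the absence describes the lists as analysed here and was not taken as absence of p65.

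Nqo1, which encodes a quinone reductase widely used as a readout of NRF2, had a weak promoter peak in adult and anti-IL-17A/F-treated mice. Nqo1 lies on the minus strand of chr8 (107388225 to 107403205). The adult peak had its middle at -250 bp and a fold enrichment of 2.82 (rank 7032 of 8525, percentile 17.5), and that of anti-IL-17A/F-treated mice lay at -159 bp with 2.95 (rank 4738 of 6014, percentile 21.2). The summits were 66 bp apart, and −log10 q was 10.5 and 10. The IgG-treated list held no overlapping peak, its closest being 147839 bp from the adult one.

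Txnrd1 encodes the cytosolic thioredoxin reductase and has 3 start sites in the curated annotation (plus strand of chr10, 82833951 to 82897724). Upstream of the first start, a peak stood at -4119 bp in adult with a fold enrichment of 2.35 (rank 8253, percentile 3.16) and at -4215 bp in anti-IL-17A/F-treated mice with 2.56 (rank 5618, percentile 6.48). Their −log10 q values were 4.34 and 4.96, and their summits were 14 bp apart. The IgG-treated list held none. A further adult peak lay at 94 bp downstream of the third start site, in the 5′ UTR of one transcript and intron 1 of the others, with 2.46 (rank 8070, percentile 5.29) and a −log10 q of 5.80, and neither aged list held it. Farther upstream, at -38444 bp in adult (2.51) and -38225 bp in anti-IL-17A/F-treated mice (2.91), a peak was nearest to 1700028I16Rik.

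The sites present in adult and anti-IL-17A/F-treated mice alone belonged to the weaker peaks of their lists. In the lowest decile of adult peaks by fold enrichment (1.85 to 2.63), which holds the Txnrd1 sites, 86.7% of peaks had no counterpart in IgG-treated mice, 73.1% had none in anti-IL-17A/F-treated mice, and 19.0% were absent from IgG-treated mice but present in anti-IL-17A/F-treated mice. In the next decile (2.63 to 2.88), which holds the Nqo1 peak, these shares were 87.5%, 69.7% and 22.5%. In the highest decile (7.14 to 23.6) no adult peak lacked a counterpart in either aged list. Absence of Nqo1 and Txnrd1 from the IgG-treated list was thus what most adult peaks of that strength showed. With each list limited to its 4169 strongest peaks, neither gene was bound in any list.

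For sites present in more than 1 list, the ratio of fold enrichments was set beside the same ratio over all shared peaks. Over the 3879 adult peaks shared with IgG-treated mice, the median ratio of IgG-treated over adult was 0.812 (quartiles 0.682 and 0.969). The ratio was 0.573 at the Sod2 intron (percentile 9.19 among shared peaks) and 0.586 at Nfe2l2 (percentile 10.2), both under the lower quartile. The Sod2 promoter had 0.755 and Sqstm1 had 0.781, both close to the median, and Gclc had 0.997, above the upper quartile. The ratios of the genes thus lay on both sides of the median, with 4 of 5 under it. The IgG-treated value was the lowest of the 3 at all 5 sites, as it was at 58.1% of the 3502 adult peaks shared with both aged lists. The gaps were small at Sqstm1 (5.34 beside 5.40) and Gclc (3.80 beside 3.81).

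Between the aged lists, the median ratio of anti-IL-17A/F-treated over IgG-treated, across 3612 shared peaks, was 1.10 (quartiles 0.938 and 1.3). Nfe2l2 had 1.66 (percentile 95.2), which was past the upper quartile. The Sod2 intron had 1.24, the Sod2 promoter 1.19, Gclc 1.07 and Sqstm1 1.01, all between the quartiles. Both these ratios contain the IgG-treated value, so that a low value there lowers the first and raises the second.

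Between anti-IL-17A/F-treated mice and adult the median ratio over 5146 shared peaks was 0.901 (quartiles 0.762 and 1.07). Sqstm1 had 0.790, the Sod2 promoter 0.897, Nfe2l2 0.972, Nqo1 1.05, Gclc 1.07 and Txnrd1 upstream 1.09. The Sod2 intron, with 0.709 (percentile 16.8), was the one site under the lower quartile.

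**Figure D3:**
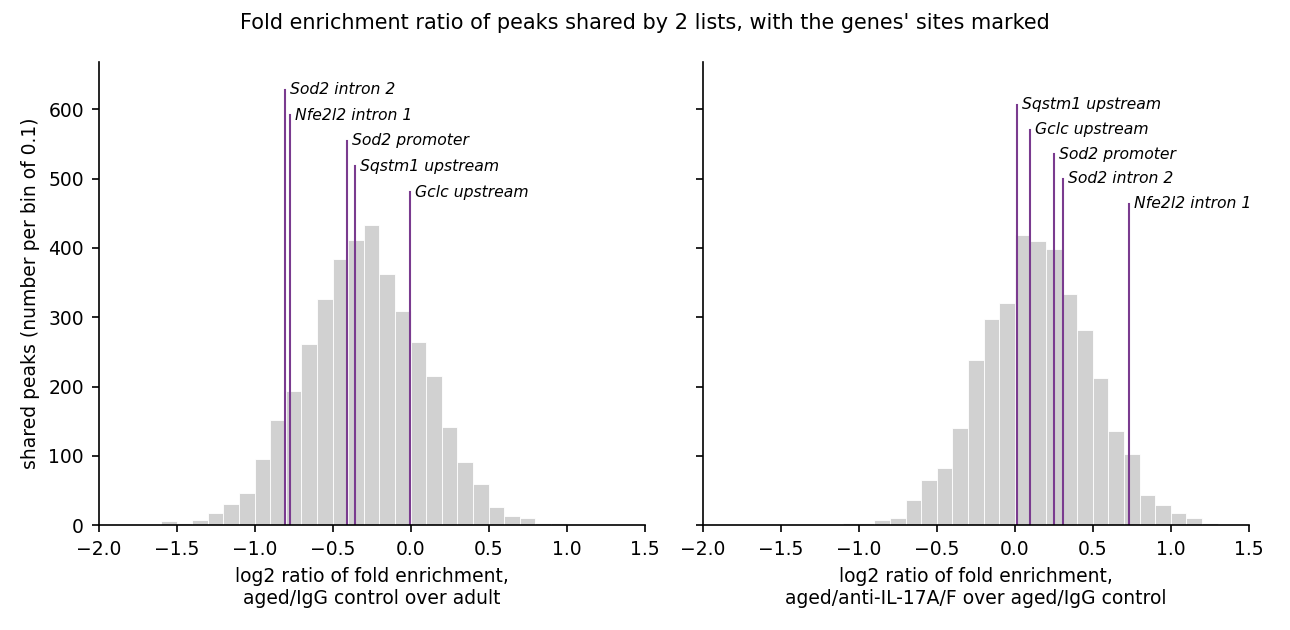
Histograms of the log2 ratio of fold enrichment over peaks shared by both lists, in bins of 0.1, for IgG-treated over adult (left, 3879 peaks) and anti-IL-17A/F-treated over IgG-treated (right, 3612 peaks), with purple lines at the sites of the genes. The Sod2 intron and Nfe2l2 lie in the left flank of the first histogram, and Nfe2l2 lies in the right flank of the second.

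Motifs were compared with all peaks of each list, in a window of 100 bp on each side of the summit and on both strands. The NF-κB consensus was found in 2 of 8 adult peaks of these genes (28.5% of all adult peaks), 2 of 5 of IgG-treated mice (37.8%) and 2 of 8 of anti-IL-17A/F-treated mice (34.9%). In every list the 2 were Sqstm1 and the Sod2 promoter. The looser pattern GGGNNNNNCC was found in 5 of 8 (67.9%), 4 of 5 (72.8%) and 5 of 8 (70.3%), shares near those of all peaks. A match is a stretch of letters and does not show which protein was bound.

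Within the same window the ARE core TGACNNNGC was found in 0 of 8 adult peaks (9.91% of all peaks), 0 of 5 of IgG-treated mice (9.23%) and 0 of 8 of anti-IL-17A/F-treated mice (9.49%). The AP-1 site TGANTCA was found in 1 of 8 (13.2%), 1 of 5 (14.1%) and 1 of 8 (14.4%), each time at Sqstm1. Over the whole length of the peaks, an ARE core or an AP-1 site was present in 5 of 8 adult peaks (38.4% of all adult peaks), 3 of 5 of IgG-treated mice (38.2%) and 3 of 8 of anti-IL-17A/F-treated mice (39.2%).

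Farther from the summits, 3 of the sites held the letters TGACTCAGC, which are at once an AP-1 site and an ARE core and read GCTGAGTCA on the other strand. This joined motif was singled out after its places had been seen. It was present in 3 of 8 adult peaks (2.16% of all adult peaks), 1 of 5 of IgG-treated mice (2.13%) and 2 of 8 of anti-IL-17A/F-treated mice (2.13%). At Gclc it lay at chr9:77750745-77750753 in all 3 lists, at -167 bp from the adult summit. At Sqstm1 (chr11:50212933-50212941) it fell inside the peak in adult and anti-IL-17A/F-treated mice, and in IgG-treated mice the peak started past it. At the Sod2 intron (chr17:13010042-13010050) the wider adult peak alone reached it. The genomic letters are the same in every condition, so these differences are differences in the edges of the peaks.

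Promoter windows of 300 bp, mostly upstream of the TSS, were taken from RefSeq (GRCm38.p6) for 16853 protein-coding genes, and 7 of the 9 genes matched an entry. The NF-κB consensus was present once each in those of Sod2 and Sqstm1, and in 4.68% of all. The Sqstm1 promoter window had no p65 peak over it, since the peak lay farther upstream. The ARE core was present once each in the windows of Nfe2l2 and Gclm (13.3% of all). The AP-1 site was in none of the 7 (7.20% of all), and the looser NF-κB pattern was in 4, Sod2, Sqstm1, Keap1 and Gclm (57.5% of all).

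Beyond the 9 genes, a list of 64 other genes of NRF2 control, redox enzymes and oxidant production was read the same way, and 24 had an assigned peak in adult (37.5%), 18 in IgG-treated mice (28.1%) and 22 in anti-IL-17A/F-treated mice (34.4%), beside 23%, 12.9% and 17.4% of all protein-coding genes. In every list 17 of 64 were bound, beside 11.4% of all protein-coding genes, and 37 of 64 in none, beside 74.9%. With the 4169 strongest peaks of each list the counts were 18, 18 and 20, so that adult was no longer highest. Of the groups of 10 or more genes, NRF2 control had the most bound, with 9 of 11 in adult and 7 of 11 in each aged list. The adult peaks of Rbx1, Bach1 and Bach2 lay far from the TSS, at 45664, -36039 and -178920 bp, and that of Mafk was weak (2.46). Those of Cul3, Maff, Nfe2l1 and Gsk3b lay at -449, -89, -472 and -126 bp, and that of Mafg at 2674 bp. In the glutathione group 3, 2 and 3 of 12 were bound, and in the thioredoxin and peroxiredoxin group 4, 3 and 5 of 10. Of the 11 genes of oxidant production, 1, 1 and 2 were bound, and the other groups of 2 to 6 genes had 1 or 2 bound members each (plot of bound genes by group).

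The strongest of these peaks in any list belonged to Nfe2l1, the gene of the NRF2 relative NRF1, with a promoter peak of 12.9 in adult, 8.35 in IgG-treated mice and 11.5 in anti-IL-17A/F-treated mice. Fth1, the heavy chain of the iron store ferritin, had 10.8, 8.24 and 12.2 at a site at -33460 bp in adult. The glutathione peroxidase genes Gpx1 and Gpx4 had 12.1, 6.4 and 7.80, and 9.41, 9.84 and 8.10. Of the 4, Gpx4 was highest in IgG-treated mice and Fth1 in anti-IL-17A/F-treated mice.

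Txn1, the cytosolic thioredoxin, had a promoter peak with fold enrichments of 11.1 in adult, 5.96 in IgG-treated mice and 5.16 in anti-IL-17A/F-treated mice. Me1, the NADPH-forming malic enzyme, had 8.67, 9.38 and 6.48 at a site at -6140 bp in adult. The small MAF gene Maff had 7.99, 5.47 and 6.17 at its promoter, and Nos2, the inducible nitric oxide synthase, had 7.25, 5.19 and 5.84 at -33523 bp in adult. Among these 8 genes the NF-κB consensus lay near the summits at Fth1, Gpx4 and Nos2 in all 3 lists.

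**Figure D4:**
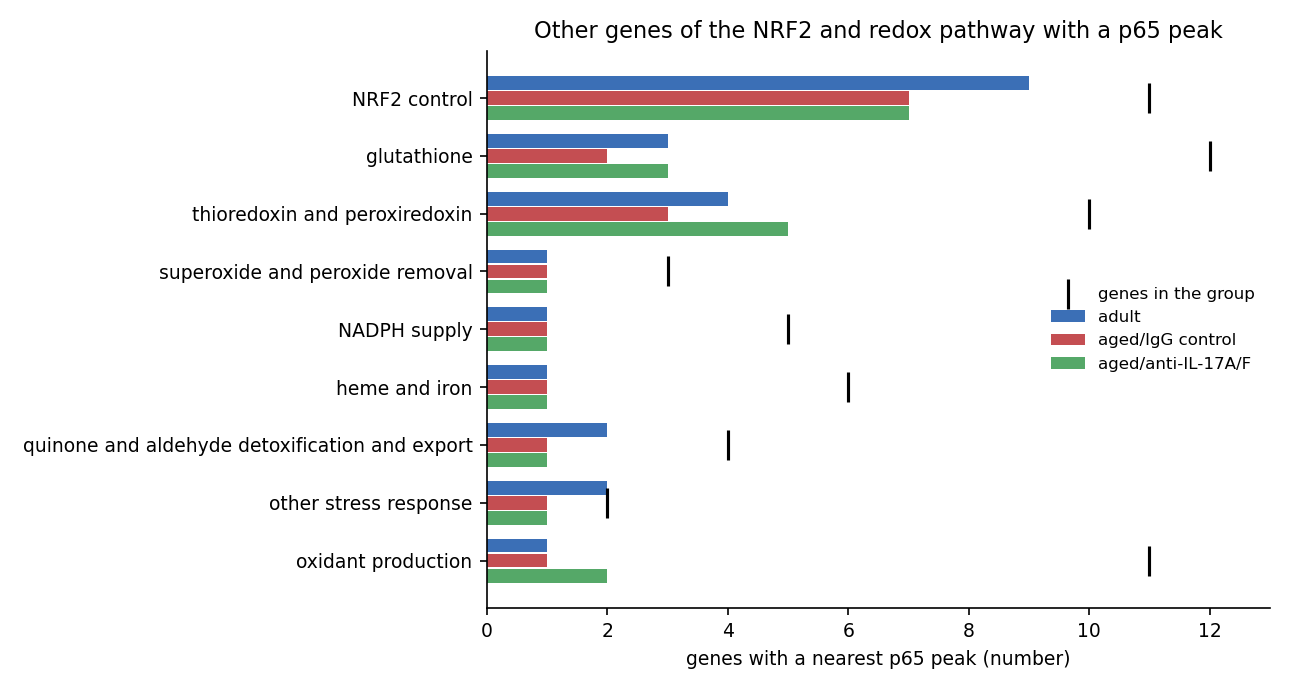
Bars give the number of genes of each functional group with an assigned p65 peak in each list, and the black mark gives the number of genes in the group. The NRF2 control group has 9, 7 and 7 of 11, and the oxidant production group 1, 1 and 2 of 11.

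Genes of this list that were bound in some conditions only had fold enrichments between 2.26 and 5.09. In adult alone these were Mafk (fold enrichment 2.46), the glutathione transferase Gstm1 (2.68), the aldehyde dehydrogenase Aldh3a1 (2.26) and Osgin1 (3.54), 4 of 64 beside 6.44% of all protein-coding genes. Prdx6 (3.50), a peroxiredoxin, glutathione reductase Gsr (3.57) and xanthine dehydrogenase Xdh (3.44) had a peak in anti-IL-17A/F-treated mice alone, 3 of 64 beside 1.48%. Bach1, which encodes a repressor at AREs, had 5.09 in adult and 2.54 in IgG-treated mice and none in anti-IL-17A/F-treated mice. This was the pattern of 192 of the 21000 protein-coding genes. Bach2 (3.19 and 3.16) and Prdx1 (3.96 and 2.50) had one in adult and anti-IL-17A/F-treated mice alone, the pattern of 4.31% of all protein-coding genes. The values are those of the strongest peak in each list, and these were not the same site. For Bach2 they lay at -178920 bp in adult and -11299 bp in anti-IL-17A/F-treated mice, and for Prdx1 at -12606 bp and 121 bp. A peak in IgG-treated mice alone was found for 0 of 64, beside 0.386% of all protein-coding genes.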

How the data were processed

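p65 ChIP–seq of epidermal cells was analysed from 3 peak lists, 1 per condition, and the 3 input samples of the series were not analysed here. Per the submitters' processing notes and the methods, the authors used Trimmomatic 0.36 for trimming and the Burrows–Wheeler aligner for alignment to mm10. They merged and deduplicated the 4 mice of a condition, brought each pool to an equal number of reads and ran MACS2 at a q threshold of 0.01. Whether the inputs entered the calling is not given in the sources used here. Pooling removes the variation between mice, and an equal number of reads does not equalise the efficiency of the immunoprecipitation. The deposited lists give for each peak the authors' fold enrichment (a ratio to local background), the −log10 of its p-value and q value, a score and the summit. The number of reads behind a peak is unknown.

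Each peak was assigned by its middle to the nearest TSS of curated RefSeq transcripts of the mm10 assembly, non-coding genes included. Overlap meant at least 1 bp. Motifs were searched on both strands, and a stretch that matched on both was counted once. Python 3.11.15, numpy 2.4.6, pandas 2.3.3, scipy 1.17.1, pysam 0.24.0 and matplotlib 3.10.9 were used, with bedtools 2.31.1 as a check, and overlap, assignment and motif steps were tested on simulated data. No test between conditions could be made. The 9 genes and the list of 64 pathway genes were chosen with earlier results of these data known. The genes named from that list are the 8 with the highest fold enrichment in any list and every gene bound in at least 1 but not all lists, and genes nearest to peaks within 50 kb were named as well, together with the 3 genes most alike to Sqstm1. Alternatives were stricter q thresholds, equal numbers of peaks, other sets of start sites, summits in place of middles, other windows and a stricter overlap.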

Additional observations from a re-analysis of the deposited data

How the results depend on the processing

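Of 182 values recomputed under other settings, 170 stayed close to the reported value and 12 moved. A count was taken as close within 1.5 times, and a percentile within the 95% Wilson interval of its reported value, which all the percentiles below left while moving by less than 1.5 times. With the strongest 4169 peaks of each list, the peaks of the genes fell from 8 to 5 in adult and from 8 to 5 in anti-IL-17A/F-treated mice, and the percentile of the strongest became 77.2 in adult (88.9 before) and 71.7 in anti-IL-17A/F-treated mice (80.4 before), where fewer weak peaks stand below it by construction. With a −log10 q of at least 10, that percentile was 83.2 in adult, 70.1 in IgG-treated mice and 71.5 in anti-IL-17A/F-treated mice, and 5, 3 and 5 of the 9 genes were bound, with Txnrd1 lost in both lists that held it and Nfe2l2 in IgG-treated mice. Counted over whole peaks, an ARE core or AP-1 site was in 5 adult, 3 IgG-treated and 3 anti-IL-17A/F-treated peaks, in place of 1 in each. Exchanging the adult and anti-IL-17A/F-treated lists, an alternative chosen after seeing the data, gave 80.4 for adult and 88.9 for anti-IL-17A/F-treated mice as the percentile of the strongest peak.

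The depth behind a peak is unknown. The weak adult peaks of Nqo1 and Txnrd1 stand in deciles where most adult peaks have no counterpart in the IgG-treated list, and likewise none in the anti-IL-17A/F-treated list. With a −log10 q of at least 5 the peaks of the genes numbered 7 in adult, 5 in IgG-treated mice and 6 in anti-IL-17A/F-treated mice. No replicate was left out in turn, since each condition is 1 pool. No paired analysis was possible because each condition has 1 pooled list.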
